A study of Homo sapiens with 8 samples.

Results

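Transcript levels of 9 human genes, the mucins MUC1, MUC5AC, MUC5B, MUC13, MUC16 and MUC20 and the trefoil factors TFF1, TFF2 and TFF3, were followed across 8 RNA sequencing libraries. The genes were taken by their symbols from a deposited table of 57905 genes, in which each symbol occurs once. Established prostate cancer lines were used, DU145, derived from a metastasis in the brain, and PC3, derived from one in bone. Each line carried either a lentivirus that adds TRIB1, an adaptor of the ubiquitin ligase COP1, or the same virus type without an insert. Each combination of line and virus makes a group of 2 libraries, 4 groups in all. Control and TRIB1 cells had therefore both been infected, and the labels give neither a promoter, a time after infection nor whether the cells are clones or separate cultures, so p-values measure only how far these libraries spread, and that spread may be technical.

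Mucins are long glycoproteins whose serine- and threonine-rich repeats carry dense O-linked sugars. MUC5AC and MUC5B, with MUC2 and MUC6, are secreted and link into the polymers that give mucus its gel. MUC1, MUC13, MUC16 and MUC20 sit in the cell membrane, where they form part of the surface coat and in part signal through their cytoplasmic tails. Trefoil factors are small, disulfide-knotted peptides that mucous epithelia release with mucins and that help the epithelium to close after injury. In the stomach TFF1 accompanies MUC5AC and TFF2 accompanies MUC6, and TFF3 accompanies MUC2 in the intestine. The comparisons ask how these transcripts differ when TRIB1 is raised in each line, whether the lines differ in that change, and how the control lines differ from each other.

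Values are TPM, read counts scaled by gene length and then to a common total per library. This scale allows levels of different genes to be set side by side but keeps no library totals, so the depth is unknown and no counting interval can be given. Between 19731 and 21335 genes reached 1 TPM per library. TRIB1 itself stood at 10.1 and 7.94 TPM in the DU145 controls against 69.4 and 62.3 TPM with TRIB1, and at 45.1 and 50.8 TPM in the PC3 controls against 241 and 245 TPM with TRIB1. On the second principal component of the 2000 most variable genes, the second DU145 TRIB1 library lay at -61.7 and the other DU145 libraries at 21.5 to 24.9. The lines expressed epithelial markers (11 genes summed to 2236 to 4953 TPM per library), whereas the prostate luminal marker KLK3 stayed below 1 TPM. Of 10 leukocyte, 6 endothelial and 9 fibroblast markers, 5, 4 and 4 stayed below 1 TPM in all libraries. STAT3 was at 0.127 to 0.502 TPM in PC3 and at 96.9 to 143 TPM in DU145.

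The lines had different repertoires. In the DU145 controls MUC1 was at 266 and 269.6 TPM and MUC20 at 11.4 and 14.8 TPM, and the other 7 genes were at or below 0.608 TPM in all 4 DU145 libraries. In bulk RNA, fewer cells that express a gene and less RNA per cell cannot be told apart. TFF3 was listed at 0 in each of those 4 libraries, and MUC13 in 3 of them. In control PC3 the highest was TFF1 with 880.4 ± 29.6 TPM (SD, n = 2), followed by TFF2 (259 ± 22.3), MUC5B (140.3 ± 22.1), MUC5AC (74.9 ± 6.06), MUC1 (56.7 ± 1.5), TFF3 (15.6 ± 0.0441), MUC20 (6.55 ± 1.96), MUC13 (0.838 ± 0.283) and MUC16 (0.270 ± 0.0238). No neighbours in this order overlapped between their libraries. TFF1 ranked 143 and 149 among all genes of the PC3 controls, and MUC1 ranked 465 and 459 in the DU145 controls.

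Between the controls, limma, with a variance trend over the mean of log2(TPM + 1), put 6 of the 9 genes higher in PC3 and 2 lower at an adjusted p below 0.05, where 18.6% and 28.4% of all 25982 genes tested were higher and lower. Over 2-fold these were 5 and 1 genes, against 9.78% and 15.7% of all genes. The 6 higher genes had DU145 group means below 1 TPM and entered the test only through PC3. MUC13 did so only through PC3 with TRIB1. A lower level in PC3 could hardly show for these genes, so the counts are no support for a direction. All log2 changes are on the log2(TPM + 1) scale, which understates the change of a low gene. The log2 difference, PC3 minus DU145, was 9.40 for TFF1 (adjusted p = 1.03e-06), 7.91 for TFF2 (1.49e-06), 6.76 for MUC5B (1.54e-05) and 6.17 for MUC5AC (3.4e-06). MUC1 was lower in PC3 by a log2 difference of -2.22 (adjusted p = 1.28e-05), its mean being 0.212 times that of DU145. MUC20 was lower as well (-0.92, adjusted p = 0.0176), but not without the second DU145 control (adjusted p = 0.109) or the second PC3 control (0.0717). MUC16 differed by 0.02 and did not pass (adjusted p = 0.968).

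**Figure D1:**
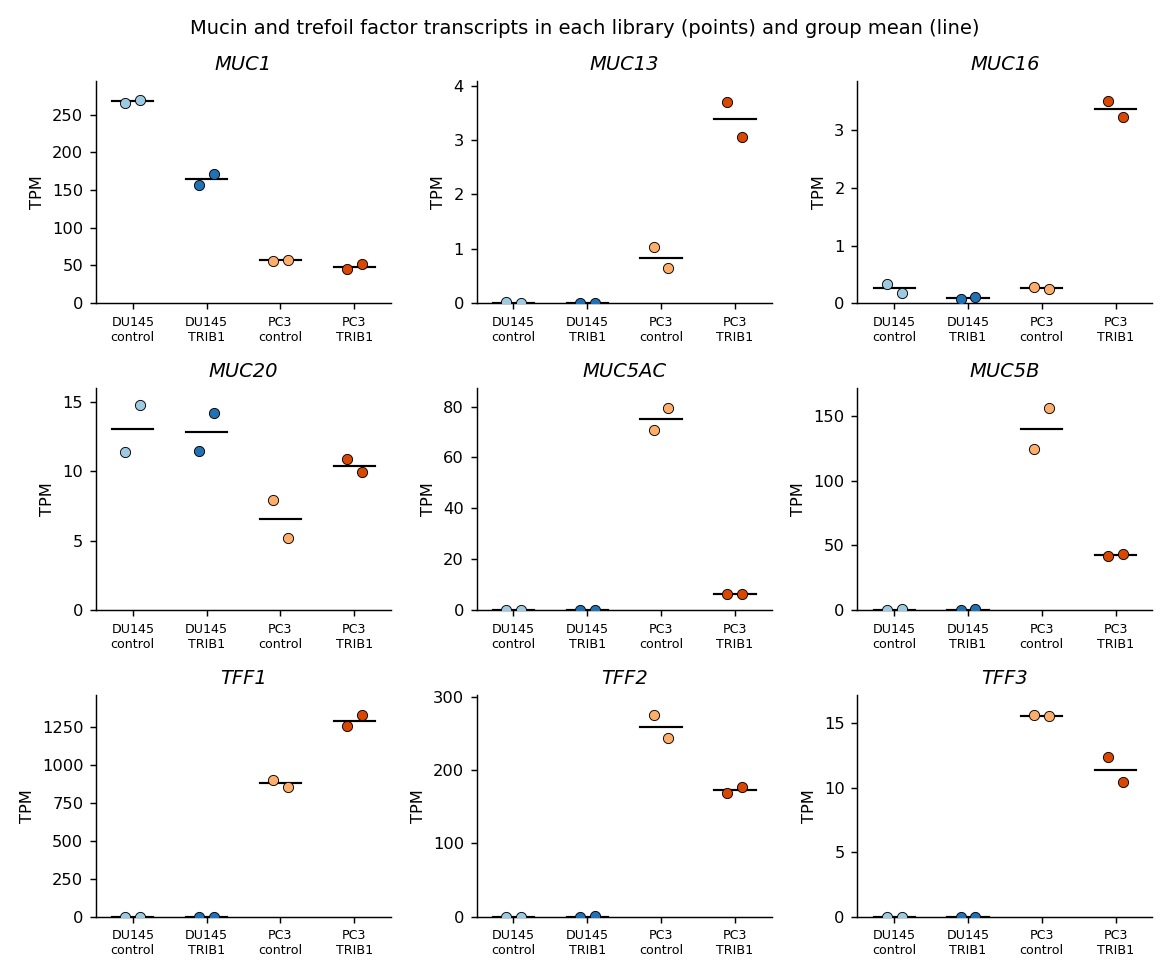
TPM (vertical axes, each from 0) of the 9 genes in the 8 libraries, as points, with group means as lines, by line and virus. The trefoil factors and secreted mucins lie near 0 in DU145. In PC3 both TRIB1 libraries of MUC5AC, at 6.42 and 6.26 TPM, lie below both controls, at 70.6 and 79.2 TPM.

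With TRIB1 in PC3, the secreted mucins MUC5AC and MUC5B fell, TFF2 fell and TFF1 rose, and the membrane mucins MUC13 and MUC16 rose from low levels. In all, 3 genes rose, 3 fell and 3 did not pass, where 7.67% of all genes tested rose and 9.33% fell. Leaving out 1 library gave 2 to 3 that rose and 1 to 3 that fell, the lowest counts without the second PC3 control or either library of PC3 with TRIB1. Over 2-fold, 2 rose and 2 fell, against 2.52% and 2.67% of all genes. The median log2 change of the 9 was -0.23, against -0.008 over all genes tested. In each of the 9 genes the 2 TRIB1 libraries did not overlap the 2 controls, as was so for 54.3% of all genes tested. MUC13 and MUC16 entered the test only through their level in PC3 with TRIB1, since a mean of at least 1 TPM in some group was required. In DU145 only MUC1 passed, where 2.01% of all genes tested fell and 0.712% rose, and the median of the 9 was -0.03 against -0.044. None of the 9 passed limma there with a change over 2-fold (0.312% of all genes rose and 0.804% fell that far), and 4 had groups that did not overlap, as did 47.3% of all genes. Of these 4, MUC5AC, MUC16 and TFF2 stayed below 1 TPM. Only 2 of the 9 genes, MUC1 and MUC20, reached 1 TPM in all DU145 libraries. A fall of the others could hardly show there, so this median and these counts are no support for an absence of change.

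Of the secreted mucins, MUC5AC (ENSG00000215182, chromosome 11, 1151580 to 1162361), the main gel former of the stomach surface and airway goblet cells, was at 70.6 and 79.2 TPM in the PC3 controls. With TRIB1 it was at 6.42 and 6.26 TPM. Its mean thus went to 0.0847 times the control, the largest fall among the 9 genes (log2 change -3.37, SE 0.13, adjusted p = 0.000734), and its rank among all genes went from 2380 and 2229 to 11637 and 11705. The fall was between -3.54 and -3.29 in all 18 alternative analyses and passed in each.

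MUC5B (ENSG00000117983, chromosome 11, 1244296 to 1260771), the gel-forming mucin of salivary and airway glands, was at 125 and 156 TPM in the PC3 controls and at 41.4 and 43.3 TPM with TRIB1. Its mean of 140.3 ± 22.1 became 42.4 ± 1.38 TPM, 0.302 times the control (log2 change -1.70, SE 0.25, adjusted p = 0.0102). The call ended without the second PC3 control (adjusted p = 0.062) or without either library of PC3 with TRIB1 (0.0739 and 0.0695), with changes of -1.54 to -1.73, and with a pseudocount of 0.1 TPM (0.252). MUC5AC and MUC5B together summed to 195 and 235 TPM in the controls and to 47.8 and 49.6 TPM with TRIB1. Because MUC5AC fell further, the ratio of MUC5B to MUC5AC went from 1.76 and 1.97 to 6.44 and 6.92. These are paralogs with repeats, and how reads shared between them were counted is not given in the sources used here.

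MUC5AC and MUC5B lie in a row with MUC6 and MUC2 on chromosome 11, and all 4 fell in PC3. MUC2, the gel former of the intestine, had 9.05 and 9.51 TPM in control PC3 and 1.13 and 0.947 TPM under TRIB1 (log2 change -2.34, SE 0.17, adjusted p = 0.00161). MUC6, a mucin of gastric glands, was at 3.06 and 3.92 TPM and then at 1.48 and 1.25 TPM (-0.92, SE 0.20, adjusted p = 0.0298). That call ended when the second PC3 control or 1 of the PC3 TRIB1 libraries was left out (0.0839 to 0.111). Of the listed genes on the MUC6 side, AP2A2, an endocytic adaptor subunit, had a log2 change of -1.01 (adjusted p = 0.0253), lost without any of 7 single libraries (up to 0.134). CHID1, farther out, was at -0.17 (0.191). On the MUC5B side, TOLLIP, an adaptor of Toll-like receptor signalling, was at -0.28 and did not pass (adjusted p = 0.292). Beyond it BRSK2, a kinase gene, fell from 9.58 to 2.88 TPM (-1.44, adjusted p = 0.00349). In DU145 none of these 8 genes passed limma, with log2 changes of -0.28 to 0.02 and adjusted p of 0.452 and above, and the mucins other than MUC6 were below 1 TPM there.

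**Figure D2:**
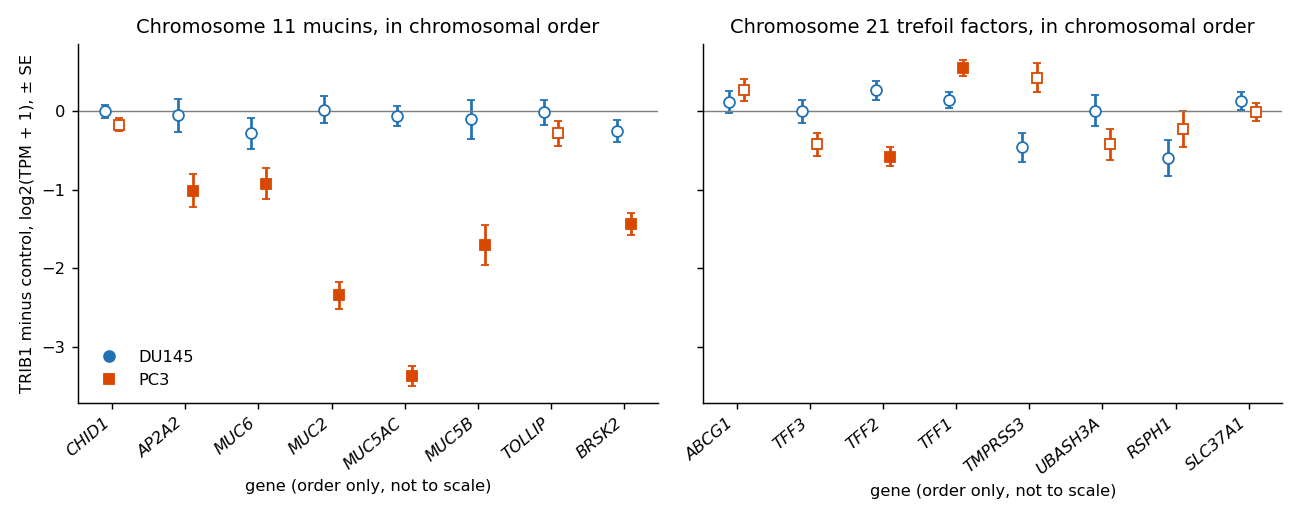
Log2 change with TRIB1 (vertical axis, log2(TPM + 1), ± SE of the fit over 8 libraries) of genes in chromosomal order around the secreted mucins and the trefoil factors, for DU145 (circles) and PC3 (squares), filled where adjusted p was below 0.05. In PC3 the 4 mucins of chromosome 11 are all below 0, with MUC5AC lowest at -3.37, whereas TFF1 at 0.55 and TFF2 at -0.58 lie on opposite sides of 0.

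The trefoil genes are neighbours on chromosome 21 and moved in different directions in PC3. TFF1 (ENSG00000160182, 43782391 to 43786703), the trefoil peptide of gastric surface cells and a classic oestrogen-induced gene, had 901 and 859 TPM in control PC3 and 1257 and 1330.0 TPM under TRIB1. It rose 1.47 times, from a mean of 880.4 ± 29.6 to one of 1293 ± 51.7 TPM (a log2 change of 0.55, SE 0.10, adjusted p = 0.0161), and its rank went from 143 and 149 to 113 and 109. The call was lost without the second PC3 control (adjusted p = 0.0748) or the first or second PC3 TRIB1 library (0.072 and 0.0958), and with a pseudocount of 0.1 TPM (0.203).

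TFF2 (ENSG00000160181, 43766466 to 43771237), the trefoil peptide with a pair of trefoil domains made by gastric mucous neck cells, was at 275 and 243 TPM in the PC3 controls. With TRIB1 it was at 168 and 178 TPM, 0.668 times the control mean (log2 change -0.58, SE 0.12, adjusted p = 0.0256). Leaving out any 1 of the 4 PC3 libraries ended this call (adjusted p 0.0581 to 0.13), as did a pseudocount of 0.5 TPM (0.0702) or 0.1 TPM (0.443), while the change stayed between -0.67 and -0.49. TFF3 (ENSG00000160180, 43731777 to 43735761), the trefoil peptide of intestinal goblet cells, was at 15.6 and 15.5 TPM and then at 12.4 and 10.4 TPM, which did not pass (-0.42, SE 0.15, adjusted p = 0.109).

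Within each PC3 library the balance of the trefoil factors differed accordingly. The ratio of TFF1 to TFF2 was 3.28 and 3.53 in the controls and 7.46 and 7.49 with TRIB1, and that of TFF1 to TFF3 was 57.8 and 55.3 against 102 and 128. The 3 genes together took 0.119% and 0.112% of all TPM in the controls and 0.144% and 0.152% with TRIB1. None of the 5 flanking genes listed (ABCG1, TMPRSS3, UBASH3A, RSPH1 and SLC37A1) passed limma in PC3, with log2 changes of -0.42 to 0.43 and adjusted p of 0.193 and above. In DU145 the trefoil genes stayed between 0 and 0.475 TPM in all 4 libraries.

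Of the membrane mucins, MUC1 was the one that passed limma in DU145, where MUC13 and MUC16 were too low for a fall to show. MUC1 (ENSG00000185499, chromosome 1, 155158300 to 155162706), a signalling mucin of most glandular epithelia, was at 266 and 269.6 TPM in the DU145 controls and at 157 and 171 TPM with TRIB1. The mean fell from 268 ± 2.41 to 164 ± 10.1 TPM, 0.613 times the control (log2 change -0.70, SE 0.08, adjusted p = 0.0154), which is less than a 2-fold change. Without the first or second DU145 control the call was lost (adjusted p = 0.074 and 0.073), and likewise with the DU145 libraries fitted alone (0.069), while without the second DU145 TRIB1 library, which stands apart, it held. In PC3 MUC1 was at 55.7 and 57.8 TPM and then at 45.5 and 51.4 TPM, a difference that missed the threshold (-0.23, SE 0.08, adjusted p = 0.108).

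MUC16 (ENSG00000181143, chromosome 19, 8959520 to 9092018), the very large mucin that carries the tumour marker CA125, was at 0.287 and 0.253 TPM in the PC3 controls and at 3.5 and 3.23 TPM with TRIB1. The mean was 12.5 times the control (log2 change 1.78, SE 0.19, adjusted p = 0.00437), and the rise passed in the 17 alternatives in which MUC16 was tested (1.74 or more). MUC13 (ENSG00000173702, chromosome 3, 124624289 to 124653595), a mucin of the gut epithelium, was at 1.04 and 0.638 TPM and then at 3.70 and 3.05 TPM, 4.03 times the control (1.26, SE 0.22, adjusted p = 0.0153). That rise held without each single library but not with the PC3 libraries fitted alone (adjusted p = 0.0581) or with a pseudocount of 0.1 TPM (0.0602). Both genes stayed at or below 0.324 TPM in DU145.

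MUC20 (ENSG00000176945, chromosome 3, 195447753 to 195460422), a mucin that binds the receptor MET, was at 7.94 and 5.16 TPM in the PC3 controls and at 10.9 and 9.93 TPM with TRIB1. The groups did not overlap, but the difference did not pass (log2 change 0.62, SE 0.22, adjusted p = 0.122). In DU145 it was at 11.4 and 14.8 TPM and then at 11.4 and 14.2 TPM (-0.03, adjusted p = 1.0). Its pseudogene MUC20P1 was at or below 0.373 TPM in every library. The noncoding gene MUC20-OT1 (LINC00969 in the table) was at 30.1 to 71.3 TPM. It fell in PC3 (-0.45, adjusted p = 0.0408), a call lost without any of 7 single libraries. MUC20-OT1 is listed at 195384933 to 195393553, apart from the interval listed for MUC20. Listed starts rarely match GENCODE 29, so whether the full genes overlap, and share reads, cannot be told from these intervals. Reads of MUC20 and its near-identical pseudogene may have been shared. The 4 membrane mucins summed to 64.9 and 63.8 TPM in the PC3 controls and to 63.6 and 67.6 TPM with TRIB1, but MUC1 made up 85.7% and 90.5% of that sum in the controls and 71.6% and 76.0% with TRIB1.

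In PC3 with TRIB1 the order of the 9 genes was TFF1, TFF2, MUC1, MUC5B, TFF3, MUC20, MUC5AC, MUC13 and MUC16. TFF3 (10.4 and 12.4 TPM) and MUC20 (9.93 and 10.9 TPM) overlapped there, as did MUC13 (3.05 and 3.70 TPM) and MUC16 (3.23 and 3.5 TPM). MUC5AC thus passed from the 4th place of the controls to the 7th.

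RefSeq promoter windows on GRCh38.p14, each 250 bases before to 50 after a transcript start, were given for 3 of the 9 genes, MUC1, MUC13 and MUC16. All 3 are shown, since these are the genes for which a window was given. MUC1 fell in DU145, and MUC13 and MUC16 rose in PC3. Each window is printed 5′ to 3′ along the gene (minus strand in all 3), with capitals for matches, on either strand, to 8 motifs searched: the TATA box as TATAAA, the GC box (bound by SP1) as GGGCGG, an E-box bound by SNAI and ZEB repressors as CAGGTG, the AP-1 motif as TGANTCA, that of C/EBP factors as TTGCNNAA, that of STAT factors as TTCNNNGAA, the forkhead motif as TGTTTNC, and the NF-kB motif. Overlapping GC boxes run together in capitals.
MUC1, chr1:155192866-155193165: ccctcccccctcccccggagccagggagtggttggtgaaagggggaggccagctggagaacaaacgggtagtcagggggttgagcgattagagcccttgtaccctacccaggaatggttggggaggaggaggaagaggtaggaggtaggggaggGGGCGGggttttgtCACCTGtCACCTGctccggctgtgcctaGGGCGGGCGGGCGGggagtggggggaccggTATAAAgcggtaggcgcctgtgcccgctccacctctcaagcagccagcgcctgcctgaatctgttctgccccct
MUC13, chr3:124934702-124935001: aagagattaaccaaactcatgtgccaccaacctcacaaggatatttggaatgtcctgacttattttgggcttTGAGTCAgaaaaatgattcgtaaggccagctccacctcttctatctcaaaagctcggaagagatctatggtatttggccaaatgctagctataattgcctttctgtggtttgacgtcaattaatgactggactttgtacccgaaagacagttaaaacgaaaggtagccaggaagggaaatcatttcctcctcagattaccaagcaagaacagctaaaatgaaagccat
MUC16, chr19:9065702-9066001: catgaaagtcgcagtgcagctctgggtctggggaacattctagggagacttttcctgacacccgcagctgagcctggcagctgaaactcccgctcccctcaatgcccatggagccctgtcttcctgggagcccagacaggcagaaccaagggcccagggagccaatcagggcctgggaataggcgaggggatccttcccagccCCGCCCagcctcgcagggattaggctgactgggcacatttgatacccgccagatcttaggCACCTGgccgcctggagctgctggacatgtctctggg

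No motif was found in all 3 windows. That of MUC1, with 65.7% G and C, held 1 TATA box, 4 GC boxes and 2 E-box matches, the latter read as CACCTG and starting 82 and 75 bases before the start. The MUC13 window, with 41.0% G and C, held 1 match, an AP-1 sequence (TGAGTCA) starting 178 bases before the start. The MUC16 window held 1 GC box and 1 CAGGTG match, and a second RefSeq start of MUC16 had a window (chr19:9010360-9010659) with 1 match each to CAGGTG, AP-1 and C/EBP. Of all 35116 windows of 300 bases, 11.5% held a TATA box, 45% a GC box, 20.6% this E-box, 7.71% an AP-1 and 10.5% a C/EBP motif. NF-kB, STAT and forkhead matches, found in 1.61%, 7.66% and 18.0% of all windows, were in none of these. A match is a run of letters, and no measurement of binding was made.

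**Figure D3:**
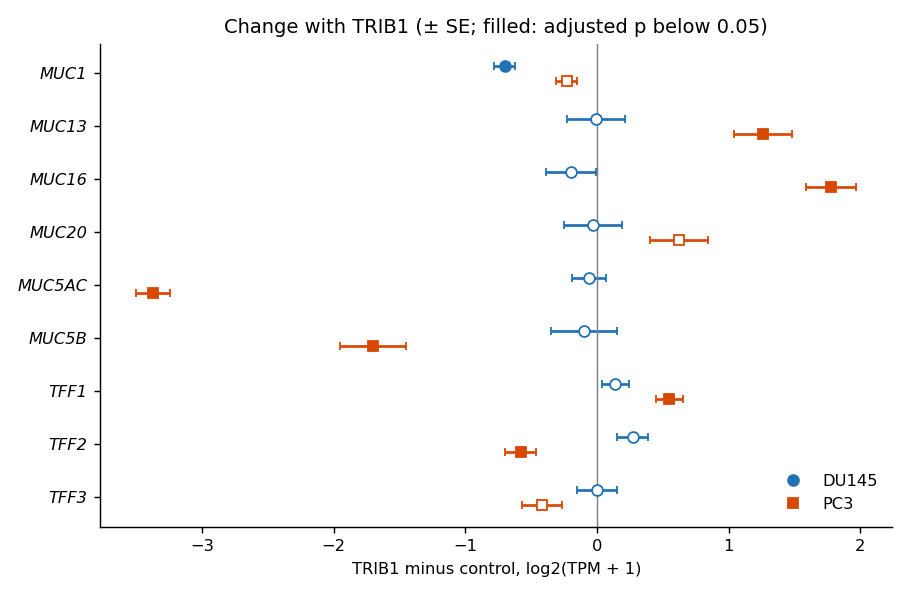
Log2 change with TRIB1 (horizontal axis, log2(TPM + 1), ± SE of the fit over 8 libraries) of each gene in DU145 (circles) and PC3 (squares), filled where adjusted p was below 0.05. In DU145 MUC1 is the filled point at -0.70, and in PC3 the changes run from -3.37 for MUC5AC to 1.78 for MUC16.

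The difference of the changes between the lines was tested by an interaction contrast (DU145 minus PC3). It passed for 4 of the 9 genes, 3 higher and 1 lower, where 4.01% and 5.36% of all genes tested were higher and lower (over 2-fold, 2 and 1 genes against 2.11% and 3.01%). These were MUC5AC (3.31, SE 0.18, adjusted p = 0.00192), MUC16 (-1.99, SE 0.27, 0.0141), TFF2 (0.85, SE 0.17, 0.035) and MUC5B (1.59, SE 0.36, 0.0491). These genes were at or below 0.608 TPM in DU145, and the contrast shares all PC3 libraries with the PC3 comparison. For MUC5AC, MUC5B and TFF2, which fell in PC3, a fall in DU145 could hardly show on this scale. MUC16 entered the test only through PC3 with TRIB1. For TFF2 the difference of 0.85 joins a change of -0.58 in PC3 and one of 0.27, which did not pass, in DU145. The MUC5B and TFF2 differences were lost without any single library (adjusted p 0.0533 to 0.153 and 0.0513 to 0.116). For MUC1, which both lines expressed, the change was -0.70 in DU145 and -0.23 in PC3, and the difference of -0.48 did not pass (SE 0.11, adjusted p = 0.0515). For MUC13 the difference was -1.27 and did not pass either (adjusted p = 0.0582).

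In PC3 the other mucin genes that passed all fell, whereas sugar-building enzymes and genes of secretory cells changed in both directions. In DU145 1 gene of these lists, the transcription factor FOXA2, passed. Over all genes tested, 7.67% rose and 9.33% fell in PC3, and 0.712% rose and 2.01% fell in DU145. These are the shares to set beside each list count below. Of the 16 other mucin and mucin-linked genes listed, 8 table entries were tested, of which 3 fell (MUC2, MUC6 and MUC20-OT1), 0 rose and 5 did not pass in PC3, with a median log2 change of -0.16. In DU145 none of the 8 passed limma. MUC3A (ENSG00000169894), an intestinal membrane mucin, was at 21.3 and 21.3 TPM in the DU145 controls and at 11.8 and 10.6 TPM with TRIB1, where the groups did not overlap but the test was not passed (-0.88, adjusted p = 0.0663). MUC12, another membrane mucin, was at 10.1 and 9.57 TPM and then at 8.09 and 6.52 TPM (-0.39, adjusted p = 0.498), and both had PC3 group means below 1 TPM.

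Of 23 tested enzymes that build O-linked mucin sugars, 5 rose, 4 fell and 14 did not pass in PC3 (median 0.15), and none passed limma in DU145 (median -0.20). B3GNT3, which extends core structures, rose from 49.9 ± 10.1 to 97.6 ± 2.05 TPM (a change of 0.97, adjusted p = 0.0256). GCNT1, which branches them, rose from 1.01 to 3.07 TPM (1.07, adjusted p = 0.0475). Of the transferases that add the first sugar, GALNT3 rose from 14.6 to 23.8 TPM (0.68, adjusted p = 0.0452) and GALNT10 fell from 104 to 62.6 TPM (-0.73, adjusted p = 0.0259). Each of these 4 calls ended under 5 or 7 of the 8 single omissions (highest adjusted p 0.194), and the list counts then ran from 0 to 3 higher and 0 to 4 lower.

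Of 14 tested genes of secretory and goblet cells, 5 fell, 1 rose and 8 did not pass in PC3 (median -0.07, and 3 to 5 fell without each single library). FOXA2, a forkhead factor of endodermal epithelia, fell from 40.7 ± 5.31 to 5.37 ± 0.409 TPM (a change of -2.71, adjusted p = 0.000959). FCGBP, a protein bound into mucus, fell from 4.88 to 0.875 TPM (-1.64, adjusted p = 0.008), and CREB3L1, a secretory stress factor, from 10.6 to 3.82 TPM (-1.26, adjusted p = 0.00855; 0.0613 without the second PC3 TRIB1 library). PIGR, the receptor that carries antibodies across epithelia, rose from 0.0575 to 2.52 TPM (1.73, adjusted p = 0.00549). PIGR entered the test only through PC3 with TRIB1, and FCGBP and BPIFA1, another of the 5 that fell, only through the PC3 controls, so these counts are no support for a direction. AGR2, a disulfide isomerase needed for MUC2 assembly that was outside the rule for named genes and was picked after its values were seen, averaged 250.1 TPM in the controls and 237 TPM with TRIB1 (-0.07, adjusted p = 0.848). In DU145, FOXA2 fell from 2.80 to 0.857 TPM (-1.03, adjusted p = 0.0356), a call lost without any single library (up to 0.152).

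Among 16 tested partners and processors of mucins and trefoil factors, 6 rose, 2 fell and 8 did not pass in PC3 (median 0.30), and none passed limma in DU145 (median -0.22). The membrane proteases PRSS8 and ST14 rose from 12.6 to 34.5 TPM (a change of 1.40, adjusted p = 0.00524) and from 60.01 to 151 TPM (1.32, adjusted p = 0.00392). GKN2, a gastric peptide that pairs with TFF1, rose from 0.403 ± 0.570 to 5.10 ± 0.284 TPM (2.18, adjusted p = 0.0131), but not when either PC3 TRIB1 library was left out (0.0793 and 0.0855). ACKR3, a chemokine receptor proposed to bind TFF2 with CXCR4, fell from 12.2 to 2.46 TPM (-1.93, adjusted p = 0.0055).

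**Figure D4:**
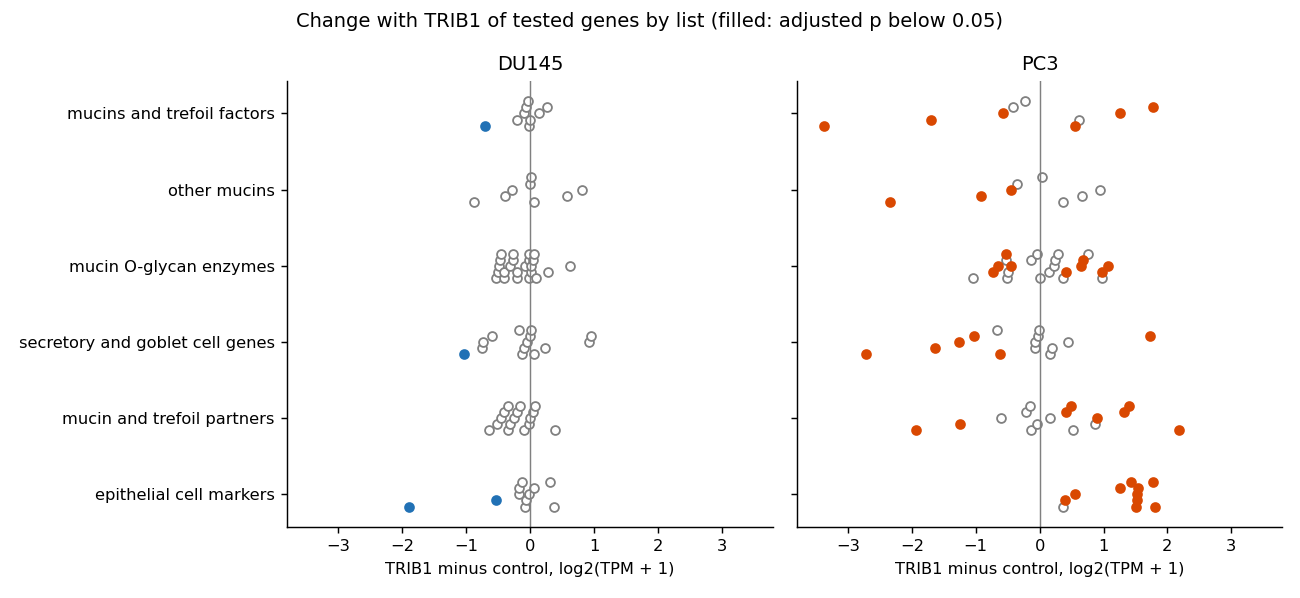
Log2 change with TRIB1 (horizontal axis, log2(TPM + 1)) of each tested gene of 6 lists (rows) in DU145 and PC3, filled where adjusted p was below 0.05. The mucin and trefoil row spans -3.37 to 1.78 in PC3, while the epithelial marker row there lies above 0.

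Cell type markers moved beside these changes. Of 11 epithelial markers in PC3, 10 rose, 0 fell and 1 did not pass, with a median of 1.51. Not all of these calls held without each single library. The markers summed to 2326 to 2438 TPM in the controls and 4807 to 4953 TPM with TRIB1. KRT8 rose by a log2 change of 1.54, EPCAM by 1.78 and GRHL2 by 1.80. In DU145 2 of the 11 fell and 0 rose, with ELF3, an epithelial ETS factor, going from 154 to 40.5 TPM (-1.90, adjusted p = 0.00206). The fibroblast markers summed to 60.2 to 71.6 TPM in the PC3 controls and 42.7 to 46.7 TPM with TRIB1, with FAP at or below 0.0741 TPM as a group mean. COL1A1 made up most of each of these sums. Of the 4 tested, COL1A1 fell from 63.2 to 38.2 TPM (-0.71, adjusted p = 0.0114; 0.0723 without the second PC3 TRIB1 library). LUM, which entered the test only through PC3 with TRIB1, rose from 0.858 to 3.26 TPM (1.23, adjusted p = 0.0315), a call lost under 4 of the 8 single omissions (up to 0.107). The other two did not pass, and the median of the 4 was 0.62. The leukocyte markers summed to 22.8 to 26.0 TPM in the PC3 controls and 36.2 to 38.4 TPM with TRIB1, and to 32.1 to 36.9 and 10.9 to 13.6 TPM in DU145, with PTPRC below 1 TPM in all libraries. Most of each of these sums was CD68. Of the 5 tested, CD68, a lysosomal protein of macrophages, was the one that passed. It rose from 19.2 to 31.5 TPM in PC3 (0.69, adjusted p = 0.0191; lost under 3 of the 8 single omissions, up to 0.105) and fell from 28.9 to 7.12 TPM in DU145 (-1.88, adjusted p = 0.00441), where MUC1 fell too. Of 9 tested prostate luminal markers 2 rose and 3 fell in PC3, HOXB13 among the latter, from 54.5 to 22.9 TPM, and 1 (STEAP2) fell in DU145. Without each single library these counts were 0 to 2, 1 to 2 and 0 to 1, and STEAP2, which fell in both lines, lost its call under 7 of the 8 omissions in PC3 and 6 in DU145. Among 19 tested chromosomal neighbours of the 9 genes, 2 rose and 3 fell in PC3 and 1 fell in DU145, and without each single library 0 to 2, 1 to 6 and 0 to 1 did. EFNA1, an ephrin gene near MUC1, fell in DU145 (-0.65, adjusted p = 0.0237) and rose in PC3 (0.42, adjusted p = 0.0232), each call lost under 5 of the 8 single omissions (highest adjusted p 0.0978 and 0.0986). The part of these markers in the mucin results was not tested.

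Other genes had profiles close to those of the 9 genes except MUC20, for which none were sought. Closeness was the root mean square difference of log2(TPM + 1) over the 8 libraries, each profile centred on its mean, among tested protein-coding genes. For MUC5AC the nearest were COL6A3, PDLIM4 and EPB41L3 (0.35, 0.35 and 0.40). PDLIM4 went from 99.6 TPM in the PC3 controls to 12.3 TPM with TRIB1, and EPB41L3 from 70.0 to 12.4 TPM. For MUC5B they were NOX5, CDH11 and HAS3 (0.26 to 0.40). TFF1 was nearest to KRT81, PI3 and MAL2 (0.49 to 0.70), TFF2 to PRAC1, AGR2 and FZD8 (0.25 to 0.30) and TFF3 to ADAM19, CLCN4 and ROBO1 (0.11 to 0.12). The distance spans both lines, so a near profile need not share the change with TRIB1. In PC3, AGR2 averaged 250 TPM in the controls and 237 TPM with TRIB1, while PRAC1 went from 296 to 141 TPM and FZD8 from 491 to 204 TPM. For MUC16 the nearest were PIGR, SLC6A11 and FAM13C (0.12 to 0.14), for MUC13 NR3C2, ACAA1 and CTNND2 (0.07 to 0.10), and for MUC1 PCDHB5, SLC25A37 and SALL4 (0.08 to 0.12). Low genes have small distances because their range is small, and with 8 libraries in 4 groups many genes can share a profile.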

How the data were processed

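RNA of 8 libraries was measured. The authors deposited 1 table of 57905 genes in TPM, each column summing to 1000000 per the file itself. Per the submitters' processing notes, TopHat2 2.0.14, HTSeq, DESeq, edgeR and hg38 were named. Which of them made the TPM values, and the annotation and strand setting, is not given in the sources used here. Of 52338 identifiers shared with GENCODE 29 on GRCh38, 365 (0.7%) had the same start, so the printed gene intervals are as listed and their build is not stated.

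Groups came from the sample titles. A limma model (version 3.58.1, R 4.3.3) with its variance trend was fitted to log2(TPM + 1) over all 8 libraries with 4 group means (4 residual degrees of freedom), for 25982 genes with a group mean of at least 1 TPM. All 9 genes passed that filter. P-values were adjusted by Benjamini and Hochberg's method across the genes tested. "Rose" and "fell" mean an adjusted p below 0.05. Comparisons that use the same control libraries are not independent.

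The fitting script was tested on simulated data. The 9 genes and the lists were chosen with earlier results of these data known. Named beyond the 9 were TRIB1, up to 4 passing genes per list with the largest change, and the 3 nearest profiles of each gene past an adjusted p of 0.05 and a log2 change of 1 in some contrast. Other chromosomal neighbours, MUC3A, MUC12, MUC20P1, AGR2, BPIFA1 and single marker genes (KLK3, STAT3, FAP, PTPRC) were named outside that rule, after their values were seen.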

Additional observations from a re-analysis of the deposited data

Results flagged for a closer look

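For 4 genes the TRIB1 change differed between the lines by the interaction test of limma (DU145 minus PC3). MUC5AC differed by 3.31 on the log2(TPM + 1) scale (adjusted p = 0.00192, between 6.8e-05 and 0.0186 over 17 alternatives). MUC16 differed by -1.99 (adjusted p = 0.0141, with 0.0362 as the highest over 16 alternatives). TFF2 differed by 0.85 (adjusted p = 0.035) and MUC5B by 1.59 (adjusted p = 0.0491), and these lost the test under 12 and 13 of 17 alternatives (adjusted p up to 0.135 and 0.531). In PC3 both TRIB1 libraries lay below both controls for MUC5AC, MUC5B and TFF2 and above them for MUC16. In DU145 these genes were at or below 0.608 TPM, where a fall could hardly show on this scale. MUC16 entered the test only through PC3 with TRIB1.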

How the results depend on the processing

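Of 615 values of the 9 genes under the alternatives, 561 kept their side of the threshold, 46 lost it, 8 gained it and none reversed a call. For PC3, the 2 genes called higher (adjusted p below 0.05 and over 2-fold) became 1 with a pseudocount of 0.1 TPM or the line alone and 0 with a filter of 5 TPM, which removes MUC13 and MUC16. Without each library they stayed at 2. The 2 called lower became 1 with a pseudocount of 0.1 TPM, and 1 to 2 without each library. For the difference between lines, the 2 called higher became 1 with a pseudocount of 0.1 or 0.5 TPM, without a filter, with upper-quartile scaling, without the variance trend, and 1 without each library. The 1 called lower became 0 with a filter of 5 TPM, 2 with median-of-ratios scaling, protein-coding genes alone or no variance trend, and 1 to 2 without each library. Between the controls, the 1 called lower became 2 with a pseudocount of 0.1 TPM and 1 to 2 without each library. The cause was not tested beyond the filter.

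Over all genes, 290 were called in DU145, against 46 with the line alone, 150 with the replicate block and 195 to 584 without each library. In PC3 1350 were called, against 938 to 1598 over all alternatives. In the difference 1330 were called (927 with the replicate block) and between the controls 6610 (4352 with protein-coding genes alone). Same-numbered libraries did not deviate together (r = -0.042 to 0.014), so the numbers were not taken as pairs. With the replicate block the TFF2 difference had an adjusted p of 0.0641 and no other call of the 9 genes changed. Of 30 calls of named list genes in PC3, 12 held without each single library, and of 5 in DU145, 2 did. TPM keeps no depth, so how firmly values under 1 TPM are measured is unknown.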
